A study of Homo sapiens with 7 samples.

Results

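Distal shared acetylated RUNX2 peaks are sites where RUNX2 was called in both KARPAS-45 and PER-117, away from gene ends, inside chromatin marked by H3K27ac in both lines. Of the 42911 KARPAS-45 RUNX2 peaks on chromosomes 1 to 22 and X, 4783 met the rule. Each overlapped a PER-117 RUNX2 peak by at least 1 bp, had its midpoint over 1 kb from every protein-coding gene end in RefSeq, and had that midpoint inside an H3K27ac region of each line. They were 55.9% of the 8560 distal KARPAS-45 peaks shared with PER-117, and they overlapped 4683 of the 21027 PER-117 peaks. They were selected on the presence of both marks in both lines, so their fold enrichments and their acetylation are given as descriptions and support nothing.

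The study mapped RUNX2 and H3K27ac by chromatin immunoprecipitation and sequencing (ChIP-seq) in 2 human cell lines of T-cell acute lymphoblastic leukemia (T-ALL). KARPAS-45, a line known for a KMT2A rearrangement, was grown with 20% fetal bovine serum, and PER-117 with 10%. The labels name no further treatment or engineered change in either line, and all libraries came from formaldehyde-crosslinked chromatin. Each line and antibody had 1 library, so there are no replicates and no test between lines, and each cell line is a single model that stands for no other leukemia. Intervals in brackets are Wilson 95% intervals for shares and order-statistic intervals for medians, and both cover counting error only.

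RUNX proteins bind DNA as a pair with CBFB, which carries no DNA contact of its own but stabilises the complex. RUNX1 and RUNX3 steer thymocyte development, whereas RUNX2 is best known as the switch of bone formation. The RUNX proteins recognise the same short core, TGTGGT on one strand and ACCACA on the other. H3K27ac is laid down at active promoters and enhancers, and in developing T cells many of the strongest enhancers of receptor, signalling and transcription factor genes hold RUNX sites beside ETS and E-protein sites.

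Sequence was at hand only for annotated promoters, so the stretches below come from the peaks that crossed one. They were read from RefSeq promoter windows of GRCh38.p14 (250 bp before to 50 bp after an annotated start), end no later than that start, and run up to 60 bp to each side of the KARPAS-45 summit, 5′ to 3′ on the strand of the gene. The first 8 are the peaks with the highest lower fold enrichment among those whose stretch held the RUNX core, and capitals mark each match to TGTGGT or ACCACA.
LOC100130987, chr11:67317674-67317794, plus strand: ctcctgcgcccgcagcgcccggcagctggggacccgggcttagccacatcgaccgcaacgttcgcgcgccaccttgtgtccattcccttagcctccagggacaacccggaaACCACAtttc
MGAT1, chr5:180803926-180804046, minus strand: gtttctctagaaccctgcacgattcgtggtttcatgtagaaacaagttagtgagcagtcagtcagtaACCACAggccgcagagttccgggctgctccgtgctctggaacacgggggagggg
LAIR1, chr19:54370559-54370676, minus strand: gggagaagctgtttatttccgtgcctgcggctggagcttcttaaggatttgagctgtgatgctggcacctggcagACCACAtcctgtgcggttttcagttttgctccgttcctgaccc
HDAC4, chr2:239267532-239267652, minus strand: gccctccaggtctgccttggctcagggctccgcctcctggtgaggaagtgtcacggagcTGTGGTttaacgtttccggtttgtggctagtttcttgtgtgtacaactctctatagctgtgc
TSPAN14, chr10:80459201-80459284, plus strand: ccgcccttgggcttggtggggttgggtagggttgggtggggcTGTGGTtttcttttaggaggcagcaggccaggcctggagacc
SMAD3, chr15:67098483-67098603, plus strand: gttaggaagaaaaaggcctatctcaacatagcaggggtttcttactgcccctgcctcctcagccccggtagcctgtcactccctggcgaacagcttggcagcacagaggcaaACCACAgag
LOC124901748, chr7:133484302-133484416, minus strand: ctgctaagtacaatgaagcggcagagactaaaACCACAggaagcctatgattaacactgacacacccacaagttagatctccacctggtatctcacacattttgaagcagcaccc
LOC101927297, chr4:70678461-70678581, plus strand: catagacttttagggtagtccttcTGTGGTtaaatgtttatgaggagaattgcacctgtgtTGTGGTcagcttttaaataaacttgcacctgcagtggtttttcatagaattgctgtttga
The remaining stretches, at LOC105370399 and NBEAL2, come from strong peaks whose window held no match to TGTGGT or ACCACA. Variants of the core were not searched, so these windows are not shown to lack a RUNX site. LOC105370399 is a non-coding RNA whose start lies beside the T-cell receptor alpha constant gene TRAC, and NBEAL2 encodes a protein needed for platelet granules.
LOC105370399, chr14:22556466-22556565, plus strand: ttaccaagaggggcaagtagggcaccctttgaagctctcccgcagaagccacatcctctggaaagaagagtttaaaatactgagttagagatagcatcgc
NBEAL2, chr3:46987834-46987954, plus strand: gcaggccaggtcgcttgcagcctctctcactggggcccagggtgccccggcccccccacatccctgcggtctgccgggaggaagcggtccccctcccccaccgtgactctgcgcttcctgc

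The first 8 printed stretches were chosen for holding the core, so that it lies near the summit in them is no finding. In HDAC4, a histone deacetylase, the centre of the core lay at -1 bp from the KARPAS-45 summit, within an internal promoter 134041 bp from the nearest end of the gene, and the fold enrichment of the peak was 38.8 in KARPAS-45 against 19.3 in PER-117. In MGAT1, an enzyme that opens complex N-glycan synthesis, it lay at -9 bp, with 40.2 and 26.6. In LAIR1, an inhibitory collagen receptor of lymphocytes, it lay at -17 bp, with 30.6 and 26.0. In TSPAN14, a tetraspanin that guides the NOTCH-cleaving protease ADAM10, it lay at -15 bp, with 31.6 and 18.4. In SMAD3, a TGF-beta signal carrier that binds RUNX proteins, the nearest core was 55 bp away, at a start 32947 bp inside the gene, with 24.3 and 16.2. The site near SSH3, at the start of LOC100130987, had 59.7 and 37.7 with the core at 54 bp. The intronic site of EXOC4 at LOC124901748 had 16.2 and 15.6, and the site at LOC101927297, near UTP3, held 2 cores and had 33.6 and 14.2. Offsets are counted along the chromosome, as the match minus the summit, and a match is a run of letters, not a site shown to be bound.

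Across promoter windows, the core was found more often under these peaks than in promoters at large. Of the 34789 windows outside chromosome 8, 4552 (13.1%) held TGTGGT on either strand. Of the 435 windows that contained the KARPAS-45 summit of a distal shared acetylated peak, 116 did (26.7%, 22.7 to 31.0). Of the 3236 windows that contained the summit of a shared acetylated peak at a gene end, 464 did (14.3%, 13.2 to 15.6). In the 23772 windows with a RUNX2 peak in neither line the share was 13.7% (13.3 to 14.1). The intervals of the distal and gene-end peaks do not overlap. Windows of neighbouring starts can hold the same summit, so windows are not independent and these intervals are too narrow. The gene-end set was not counted by peak. The ETS core GGAAGT was in 22.8% of all windows, in 34.7% (30.4 to 39.3) of those under distal shared acetylated peaks and in 37.7% (36.05 to 39.4) of those under the gene-end peaks. For the E-box CANCTG, the letters E-proteins read, the shares were 49.9%, 48.7% (44.1 to 53.4) and 40.1% (38.4 to 41.8). AGATAA, the letters GATA factors read, stood at 10.4%, 6.44% (4.49 to 9.15) and 4.05% (3.42 to 4.78). All were searched on both strands, and matches of different cores may overlap within a window. Base composition was not matched between the sets, and its part in these shares was not tested.

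Counted by peak, 372 distal shared acetylated peaks outside chromosome 8 had their KARPAS-45 summit in a promoter window, and 100 of them (26.9%, 22.6 to 31.6) held the core there. The nearest match lay a median of 21.5 bp from the summit, 78 of the 100 were within 50 bp, and 14 were over 100 bp away. The plot of match offsets shows this pile-up around the summit. Split into 3 equal groups of 124 by the lower of the fold enrichments, the core was present in 18.5% (12.7 to 26.3) of the lowest and of the middle group, and in 43.5% (35.1 to 52.3) of the highest, which began at a lower fold enrichment of 7.42. These peaks are the minority that cross an annotated promoter, and the others were not searched.

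**Figure D1:**
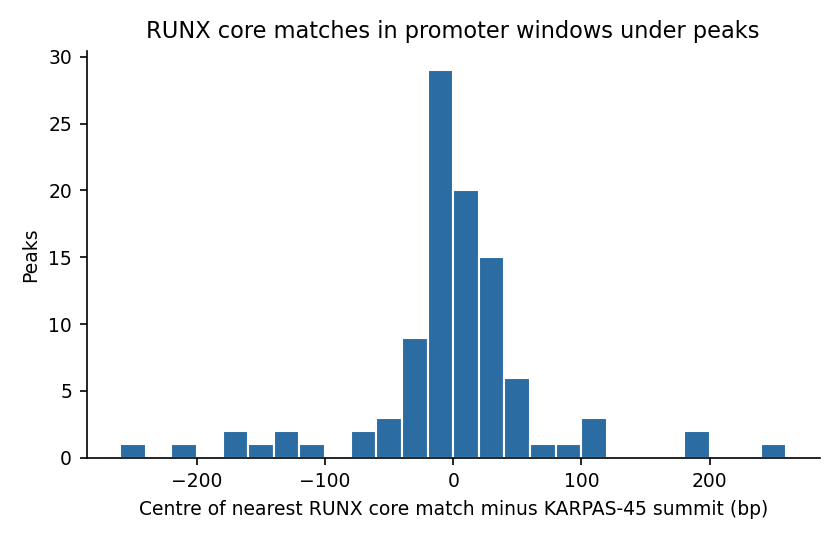
Histogram of the distance in bp between the KARPAS-45 summit and the centre of the nearest RUNX core match for the 100 distal shared acetylated peaks with a match in their promoter window, in bins of 20 bp (y axis, number of peaks). Most matches lie around 0, with a median absolute distance of 21.5 bp and 14 peaks over 100 bp away.

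Where the peaks lay was set beside 2 neighbouring classes from the same lists: the 1876 distal shared peaks without H3K27ac in either line, and the 3976 distal peaks called only in KARPAS-45 but acetylated in both lines. The remaining distal shared peaks had H3K27ac in KARPAS-45 only (971) or in PER-117 only (930). Distal shared acetylated peaks were mostly within genes. Their midpoint was inside a protein-coding gene in 61.9% (60.5 to 63.3), against 51.1% (48.9 to 53.4) of the unacetylated and 68.9% (67.5 to 70.4) of the KARPAS-45-only peaks. Outside every annotated gene of any kind lay 26.2%, 35.7% and 21.2%. The shared acetylated peaks stood between the other classes in both measures, and the intervals of the 3 classes do not overlap for the share inside genes.

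The distal shared acetylated peaks lay closer to genes than those without H3K27ac in either line. Their median distance to the nearest protein-coding gene end was 15283 bp (14431 to 16134), against 23044.5 bp (21102 to 25052) and 14905 bp (14052 to 15912) for KARPAS-45-only peaks. Among the shared peaks acetylated in 1 line, the median was 14744 bp (13864 to 16206) with H3K27ac in KARPAS-45 only and 28675.5 bp (26048 to 32273) with it in PER-117 only, the last being farther from genes than the unacetylated peaks. Of the peaks acetylated in both lines, within 5 kb lay 25.2%, within 20 kb 57.0%, within 50 kb 78.7% and within 100 kb 89.8%. The remaining 487 peaks were over 100 kb away. The farthest outside chromosome 8 was 3321400 bp from OR11H1, an olfactory receptor, and the next were between 1240484 and 1411551 bp from UQCRFS1, CDC73, TMEM121 and SLITRK5. Where the nearest gene had a strand in the promoter table, the 5′ end was the nearer one for 56.9% (55.4 to 58.5) of 3941 peaks, against 52.8% (50.3 to 55.3) of the unacetylated and 60.9% (59.2 to 62.5) of the KARPAS-45-only peaks.

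**Figure D2:**
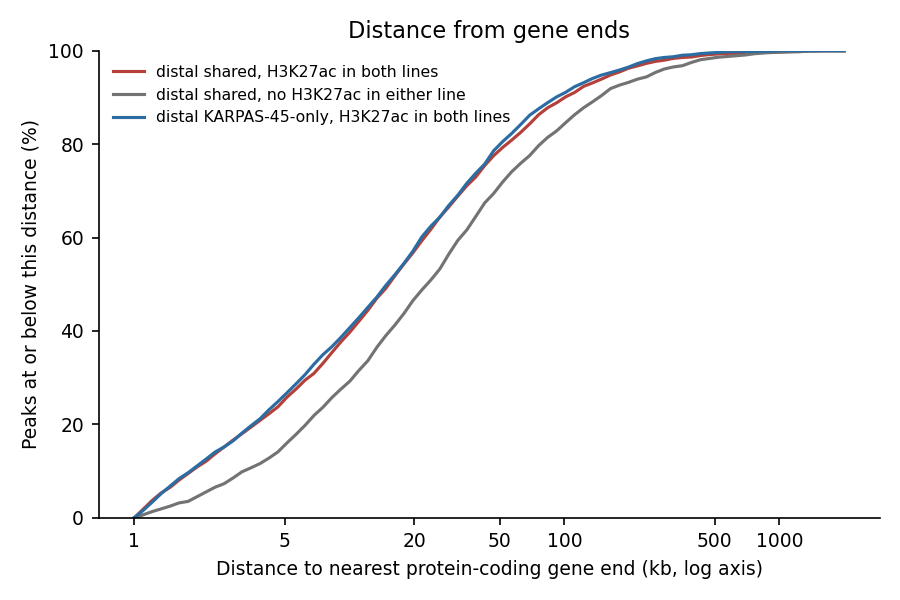
Cumulative share of peaks (y axis, percent) at or below a distance to the nearest protein-coding gene end (x axis, kb, log scale) for the 3 classes of distal peaks. The curve of the shared acetylated peaks runs with that of the KARPAS-45-only acetylated peaks, with medians of 15283 and 14905 bp, and left of the unacetylated shared peaks, with 23044.5 bp.

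The word distal rests on gene ends, and some of the peaks were at promoters all the same. In total 521 of the 4783 (10.9%, 10.0 to 11.8) overlapped a promoter window, 344 (7.19%) one of a protein-coding gene and 177 (3.70%) one of a long non-coding RNA only. How many of the 344 did so at a start inside the gene was not counted. Among the unacetylated distal shared peaks 26 (1.39%, 0.948 to 2.02) did, and among the KARPAS-45-only acetylated peaks 10.8% (9.86 to 11.8). Over 1 kb from every annotated start lay 4066 of the distal shared acetylated peaks (85.0%). The files hold no measure of enhancer activity or of contact with a gene, so the peaks are named here by the nearest gene as a place, not as a target.

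At the 1 kb limit itself, the closest included peak was 1002 bp from SLC2A1, the main glucose carrier, with 11.7 in KARPAS-45 against 6.81 in PER-117. Next came one 1004 bp from PPP3R1, the calcineurin regulatory subunit, with 4.32 and 6.05, and one 1004 bp from RDH11 with 3.34 and 2.78. Just excluded were peaks 999 bp from ZNF367 (9.29 and 7.88), 999 bp from PSMB10 (7.67 and 4.26) and 998 bp from TDP1 (15.3 and 3.72). Fold enrichments just inside and just outside the limit overlapped.

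The RUNX2 signal at these sites is described by the authors' fold enrichment, which ranks peaks within a list only. The median was 9.64 in KARPAS-45 (quartiles 6.06 and 16.5) and 6.94 in PER-117 (quartiles 4.91 and 10.6). In the strongest 10% of the KARPAS-45 list were 23.8% of the peaks, in that of the PER-117 list 16.1%, and 444 were in both. In KARPAS-45 other distal shared peaks were stronger, with a median of 10.8 and 30.4% in the top 10% for those without H3K27ac in either line, and 12.0 and 35.6% for those with H3K27ac in KARPAS-45 only. Their medians in PER-117 were lower, 6.25 and 5.66. The peaks with H3K27ac in PER-117 only had a KARPAS-45 median of 7.78, against 7.58 in PER-117. Across the 4783 peaks the fold enrichments of the lines had a Spearman rho of 0.459. Points share the gene neighbourhood and the 2 libraries, so this is a description. The scatter of both values shows a broad cloud rather than a line.

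**Figure D3:**
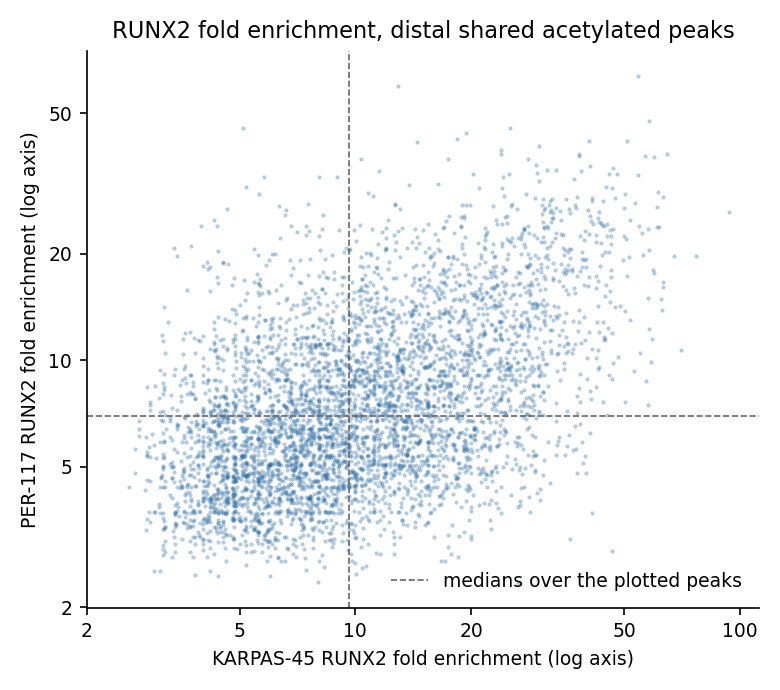
RUNX2 fold enrichment in KARPAS-45 (x axis) and PER-117 (y axis), both log scale, for the 4783 distal shared acetylated peaks, with dashed lines at the medians of 9.64 and 6.94. Values rise together (Spearman rho 0.459), with peaks high in 1 line and near the bottom in the other on both sides.

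The peaks were broader, and more often had several summits, than the unacetylated shared peaks. The median width was 376 bp in KARPAS-45 (370 to 381) and 384 bp in PER-117, against 319 and 294 bp for the unacetylated shared peaks. Distal shared peaks with H3K27ac in KARPAS-45 only had 363 bp (351 to 373) in KARPAS-45 and 310 bp in PER-117. Those with it in PER-117 only had 284 bp in KARPAS-45 and 359.5 bp (348 to 371) in PER-117. Among the peaks acetylated in both lines, 11.6% (10.7 to 12.499) had more than 1 KARPAS-45 summit. This compares with 2.77% (2.12 to 3.62) of the unacetylated and 5.66% (4.98 to 6.42) of the KARPAS-45-only peaks. The strongest summits of the lines were a median of 29 bp apart (28 to 30), against 22 bp (21 to 23) for the unacetylated peaks. They lay within 50 bp of each other in 69.1% and 81.4%, and over 200 bp apart in 8.61% and 1.97%. A wider peak leaves more room between summits, and the part of width in this gap was not tested. In 98 cases 1 PER-117 peak was overlapped by several of the KARPAS-45 peaks, so these share a partner value.

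The acetylated regions around them were long beside each whole list, a trait shared with the KARPAS-45-only peaks acetylated in both lines. For those peaks the median region width was 6748.5 bp (6454 to 7150) in KARPAS-45 and 2042 bp (1952 to 2117) in PER-117. For the distal shared acetylated peaks, the KARPAS-45 H3K27ac region that held the midpoint had a median width of 5832 bp. Over that whole list it was 1270 bp. The PER-117 region had 3101 bp, against 816 bp. The rule asks for a midpoint inside a region, which a long region meets more easily. The distal shared acetylated peaks fell in 3860 KARPAS-45 regions (6.10% of the list) and 4165 PER-117 regions (7.82%). A single region held up to 14 of them in KARPAS-45 and up to 6 in PER-117.

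The strongest sites in both lines, ranked by the worse of the ranks, lay at genes of several roles. The best placed (chromosome 15, 90660554 to 90661887, hg38) lay outside genes, 15876 bp from CRTC3, a CREB coactivator. Its fold enrichment was 64.8 in KARPAS-45 against 38.2 in PER-117. The next was the SSH3 site printed above, near a cofilin phosphatase. The third, with 58.1 and 47.7, lay between TRAC and DAD1 and is taken up below. A site 161860 bp from UACA had 54.4 and 33.5. The site inside SMCO1 (chromosome 3, 196511956 to 196512405) was the strongest of the whole PER-117 list, with 54.4 and 63.7. CLEC2D, the ligand of the killer cell receptor KLRB1, had a site 18773 bp away with 51.0 and 41.8, and CAMK2D, a calcium-dependent kinase, one inside it with 63.2 and 29.0. MAML3, a NOTCH coactivator, held a site with 53.3 and 27.8, and ZNRF1, a ubiquitin ligase, one with 46.9 and 34.95. Further sites among the best 15 were near or in SMIM40, TRIP4, ZFYVE28, KLHDC4 and MNS1, with at least 47.3 in KARPAS-45 against 27.2 in PER-117. In all 15 the summits of the lines were 33 bp apart or less.

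Some sites passed in both lists but ranked near the top of one and near the bottom of the other. A site inside TPM1, a tropomyosin, had 46.4 in KARPAS-45 against 2.89 in PER-117, with summits 273 bp apart. PRDX5, a peroxidase, had 26.5 and 2.35 at 1782 bp, KIF3B, a kinesin, 36.1 and 3.12, and TRRAP, the scaffold of acetyltransferase complexes, 18.5 and 2.76. INPP4A, BORCS5, ALG1L2, DNAJB6, AMIGO3 and ATG13 completed the 10 with the greatest lead in KARPAS-45, from 16.7 to 20.1 against 2.70 to 3.19. In the other direction, CREBZF had 3.37 in KARPAS-45 against 20.8 in PER-117, with summits 447 bp apart. WDR70 had 3.73 and 21.0, AUH 3.96 and 24.0, UBASH3B, a phosphatase that dampens receptor signalling, 3.17 and 14.2, and XBP1, the factor of the unfolded protein response, 3.65 and 15.8 at 10320 bp. STT3B, ADK, TEX13D and LOC124900476 were among the rest, which ran from 3.14 to 4.01 against 11.4 to 19.7. Only the order within each list can be read from these values.

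T-cell receptor genes come first among the lineage genes. RefSeq codes the receptor segments apart from protein-coding genes, so they were looked up by name. Past TRAC, the alpha chain constant gene on chromosome 14, 4 peaks lay at 4292, 5307, 9760 and 18211 bp, on the side of DAD1 where the alpha enhancer is known to lie. The first (22555714 to 22557134) had 58.1 in KARPAS-45 against 47.7 in PER-117, the third 28.7 and 14.0, and the other two between 4.34 and 8.39 in both lines. All 4 sat in 1 H3K27ac region per line, 28498 bp wide in KARPAS-45 and 16711 bp in PER-117. The first is the site at LOC105370399 whose promoter window held neither TGTGGT nor ACCACA. Variants of the RUNX core were not searched, so the window is not shown to lack a RUNX site. Downstream of TRBC2, a beta chain constant gene on chromosome 7, peaks lay at 2336 bp, with 6.32 and 27.2, and at 6543 bp (142808688 to 142809456), with 32.2 and 24.6. The latter was 3514 bp from TRBV30, on the stretch where the beta enhancer is known to lie. Near TRGC2, a gamma chain constant gene, 1 peak lay 6932 bp away (chromosome 7, 38232723 to 38233461) with 41.1 and 24.7, inside a KARPAS-45 region of 44618 bp and a PER-117 region of 4410 bp. No distal shared acetylated peak lay within 50 kb of TRDC, the delta constant gene. TRDC is on chromosome 14 as well, and the 4 peaks past TRAC fell outside that window. Thus the alpha, beta and gamma constant genes named here had such a peak within 50 kb.

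The genes of RUNX proteins themselves had such peaks at all 4 loci. RUNX1 was the nearest gene of 9, of which 7 lay inside it. The strongest by the lower value, 22359 bp inside its upstream end (chromosome 21, 35026709 to 35027177), had 23.9 in KARPAS-45 against 39.4 in PER-117, and another had 30.2 and 12.3. The rest ranged from 3.72 to 17.5 in KARPAS-45 and from 3.50 to 12.0 in PER-117, and 1 was 178118 bp from the gene. Within 50 kb of RUNX2 or nearest to it were 9, with 26.8 and 12.47 at 17739 bp before its start (chromosome 6, 45310280 to 45310902), where the span of SUPT3H also runs, and 5 inside the gene between 7.54 and 22.6 in KARPAS-45 and between 4.72 and 9.63 in PER-117. RUNX3 had 3 upstream, of which 1 at 32457 bp (chromosome 1, 24997068 to 24998121) had 51.0 and 17.3. CBFB held 1, with 8.93 and 4.69. The map of 4 loci shows the RUNX1 peaks spread over the gene. For 8 of the 9 the H3K27ac region around the peak was longer in KARPAS-45 (2128 to 54258 bp) than in PER-117 (801 to 9734 bp), and for the other it was 8373 bp against 10390 bp.

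**Figure D4:**
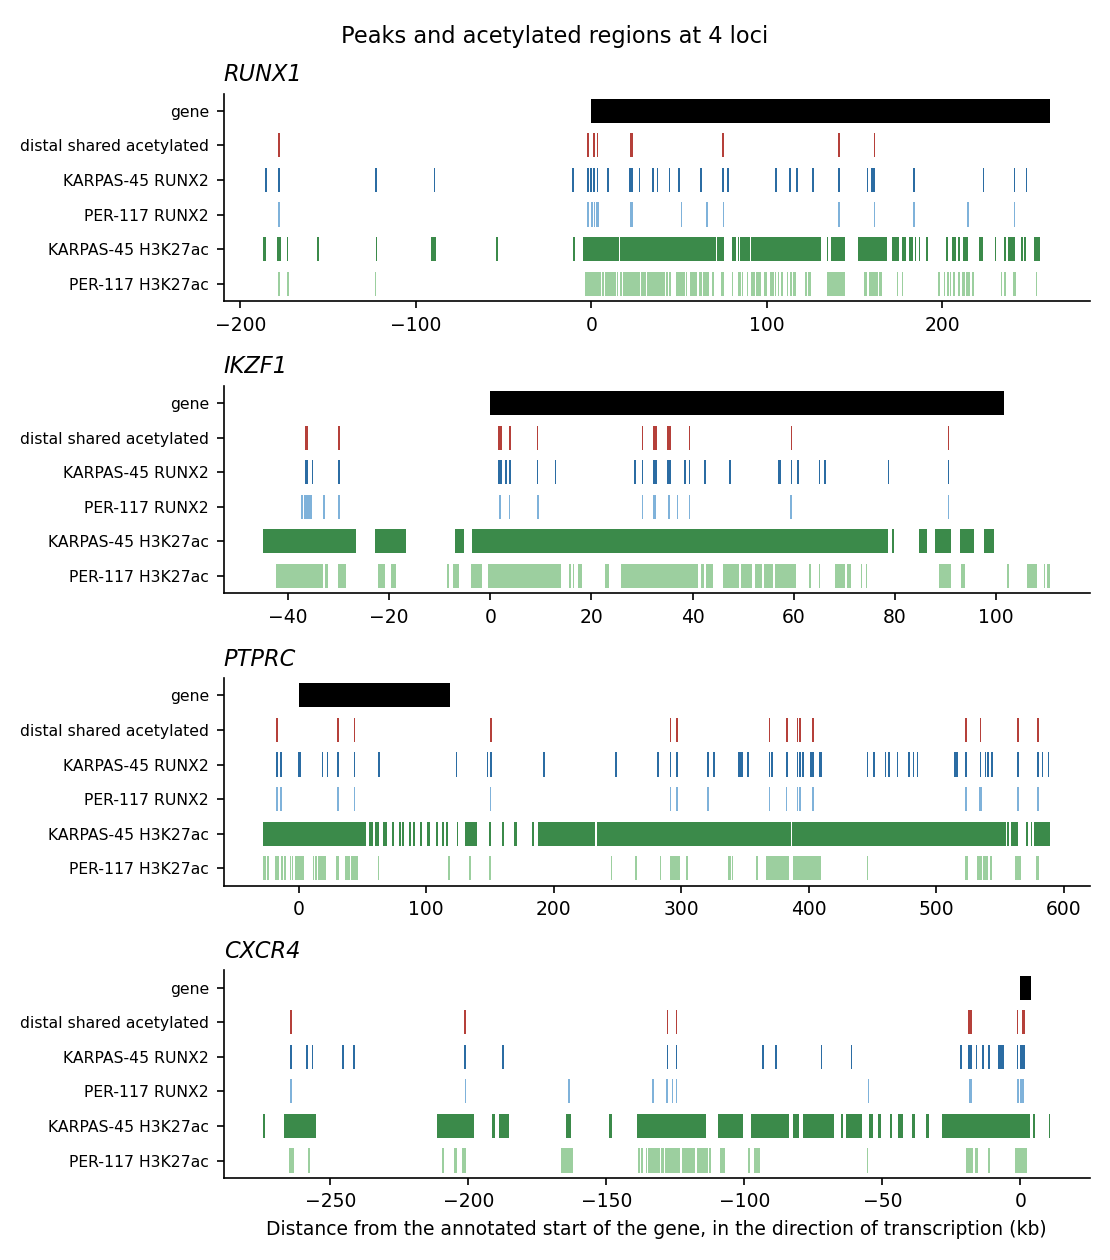
Positions of distal shared acetylated RUNX2 peaks, all RUNX2 peaks and H3K27ac regions of each line at RUNX1, IKZF1, PTPRC and CXCR4 (x axis, distance in kb from the annotated start in the direction of transcription; the black bar is the gene). The distal shared acetylated peaks number 9, 11, 15 and 7, and at PTPRC and CXCR4 most lie far outside the gene.

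Several transcription factors of the T lineage had many such peaks. IKZF1, the Ikaros factor of lymphoid commitment, had 11 peaks on chromosome 7, 9 inside the gene and 2 upstream. The one 36365 bp upstream (50266855 to 50267324) had 32.2 in KARPAS-45 against 26.3 in PER-117, and the other 10 ranged from 3.78 to 17.3 and from 2.53 to 6.997. ETS1, a lymphoid ETS factor, had 11 as well, 2 inside and the farthest 419275 bp away, with 43.05 and 9.58 at 35961 bp. BCL11B, the factor that seals T-cell identity, was nearest to 9, of which 6 lay together between 958733 and 1033117 bp past its downstream end, in the gene desert known to hold its distant T-cell enhancer. These 6 shared 1 KARPAS-45 region of 90733 bp, and the strongest had 45.2 and 24.3 (chromosome 14, 98198298 to 98199030), and 38.1 and 38.4 (98210267 to 98210841). A further one 237134 bp from the gene had 42.7 and 9.46. TCF7, a NOTCH-induced factor of early T cells, had 5 within 50 kb, the strongest at 21010 bp with 39.4 and 16.3. ELF1 had 4, with 8.64 and 12.8 for the strongest. LEF1, the partner of TCF7, GFI1, ID3 and the chromatin organiser SATB1 had 3 each. KLF2, which controls T-cell exit from the thymus, had 1, with 40.6 and 22.7 at 42713 bp.

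Of the receptors, PTPRC, which encodes the phosphatase CD45 that switches on LCK, was the nearest gene of 15 peaks. Inside it, 1 (chromosome 1, 198681737 to 198682577) had 45.7 in KARPAS-45 against 33.8 in PER-117, and 284210 bp past it another (199041360 to 199042011) had 25.1 and 33.7. Between 172526 and 460716 bp past the gene lay 11 of the 15, with KARPAS-45 values from 3.83 to 28.9 and PER-117 values from 2.80 to 33.7. CD247, the zeta chain of the receptor, had 2 inside, of which 1 (chromosome 1, 167455153 to 167455915) had 43.05 and 26.3. CD7 had 6 within 50 kb, of which the strongest had 14.0 and 13.6, CD96 had 2, of which 1 had 33.1 and 22.2, and CD28, the main costimulator, had 2, of which 1 had 36.7 and 10.4. CD3D, CD3E and CD3G, the invariant receptor chains, and CD4, CD8A, CD8B, CD5 and CD6 had none within 50 kb. IL7R, the receptor of the thymic survival cytokine, had one 5050 bp past it with 27.9 and 15.6 and one at 20444 bp with 14.8 and 6.81.

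CXCR4, the receptor that holds T-ALL cells in their niche, was nearest to 7 peaks. The one 18424 bp upstream (chromosome 2, 136135860 to 136137286) had 57.9 in KARPAS-45 against 7.48 in PER-117, the one inside the gene 25.02 and 7.75, and the other 5 ranged from 4.83 to 9.21 and from 2.93 to 11.5. In PER-117 none of the 7 exceeded 11.5. NOTCH1, the receptor most often mutated in T-ALL, had 7, with 34.9 and 19.9 for the strongest, 16174 bp inside it. A neighbour with 5.58 in KARPAS-45 overlapped the same PER-117 peak. CD34, a progenitor antigen, had 4 past its 3′ end, of which 2 had 33.1 and 18.0, and 31.0 and 23.8, although its own gene end was acetylated in KARPAS-45 only. MSI2, which binds RNA in blood stem cells, held 11, with 76.8 and 19.7 for the strongest (chromosome 17, 57454738 to 57455727) and 46.4 and 11.9 for the next by KARPAS-45 value. ETV6, a blood repressor, had 8, of which 1 inside it had 14.5 and 41.6. CCND3, the cyclin that thymocytes need to divide, held 7, with 20.2 and 33.6 for the one 1418 bp from its 3′ end.

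Joined where midpoints lay within 50 kb, the 4783 peaks formed 2939 groups, of which 1935 held a single peak. The 105 groups with 5 or more held 640 peaks (13.4%). SEPTIN9, a cytoskeletal septin and a known KMT2A fusion partner, held 14 in 144 kb, with fold enrichments from 4.88 to 29.8 in KARPAS-45 and from 3.83 to 15.5 in PER-117. SELPLG, which encodes the P-selectin ligand of rolling leukocytes, and its neighbour CORO1C, a coronin, shared 12 in 114 kb, from 3.44 to 20.0 and from 3.44 to 8.44. A group of 11 lay inside GSE1, a member of a deacetylase complex, whose span held 21 in all, and IKZF1 had the 11 described. Among the groups of 9 were those at DNAJB12 and DDIT4, at SEMA4D, a semaphorin of T cells, at HS6ST1 and at PTP4A2, with groups of 8 at BCAS1, at RHOH, a GTPase that T-cell receptor signalling needs, and at ZNF217. Within the spans of the 12 largest groups H3K27ac covered between 56.7% and 100% in KARPAS-45 and between 25.4% and 64.0% in PER-117. At the shorter joining distance tried there were 3741 groups and the largest held 7.

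A few of the peaks lay in very long acetylated regions, and the 5 longest that held such a peak outside chromosome 8 are given for each line. In KARPAS-45 the longest (367982 bp) held a peak outside protein-coding genes, 299647 bp from PRL, the nearest one. Its RUNX2 values were 3.74 in KARPAS-45 against 4.38 in PER-117. The others were at PITPNM2 (216960 bp), GSE1 (201339 bp), MSI2 (177032 bp) and past PTPRC (167875 bp, with a peak 272088 bp from the gene). In PER-117 they were at BCL2L1, which encodes the survival factor BCL-XL (32744 bp, with 10.3 and 18.4), HIVEP3 (31724 bp), SOCS1, a brake on cytokine signalling (26919 bp), XBP1 (26635 bp) and the BCL11B desert (26101 bp). The longest region of the whole PER-117 list, 38650 bp, held the midpoint of none of the peaks. The 5 regions of each line lay at different loci.

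Across genes, 6001 of the 19974 protein-coding genes (30.0%) had a distal shared acetylated peak inside them or within 50 kb of their span. Of these genes, 1015 (5.08% of all) had 3 or more. A peak had the nearest end at 2923 genes (14.6%), and 1945 of them had only 1. Of all protein-coding genes, 51.9% had H3K27ac within 1 kb of an end in each line. The genes nearest to a peak had it in 73.9% (72.2 to 75.4), and the other genes in 48.1% (47.3 to 48.8). RUNX2 lay at an end in each line in 29.2% of all genes, in 40.4% (38.6 to 42.2) of the nearest and in 27.2% (26.6 to 27.9) of the others. The rule kept the peaks themselves over 1 kb from those ends. The H3K27ac region that held a peak could itself reach an end and be counted there. The acetylated share of the nearest genes is therefore partly set by the rule, and how far was not tested. The nearest genes were also longer, with a median span of 45.2 kb against 21.8 kb, and the part of length was not tested.

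Gene lists, chosen with results of these data known, were read against that 30.0%. For the 3 T-cell lists together, 49 of 85 genes (57.6%, 47.0 to 67.6) had a peak within 50 kb, and 19 had 3 or more. Their median span was 43.8 kb. Among the 60 of the 85 genes with H3K27ac at an end in each line, 42 had a peak within 50 kb. Among all 10359 such protein-coding genes 4345 did (41.9%). Of 27 genes of T-cell receptor signalling, 21 had one (77.8%, 59.2 to 89.4). They included PRKCQ, the kinase of the immune synapse (5 peaks, the strongest with 31.0 in KARPAS-45 against 26.6 in PER-117), CSK, the inhibitor of LCK (5, with 35.7 and 15.4), LCP2, an adaptor (3, with 38.6 and 34.4), VAV1, an exchange factor (4, with 15.6 and 11.04), and LCK itself (2, with 12.2 and 7.41). MALT1, BCL10, RASGRP1, SKAP1, NFATC2 and CBLB had none. Of 30 T-lineage transcription factors 18 had one, and GATA3, MYB, FOXO1 and BACH2 were among the 12 without. Of 28 receptor and coreceptor genes only 10 did (35.7%, 20.7 to 54.2), a share near the background.

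Cytokine receptor and JAK-STAT genes had a peak nearby in 23 of 29 cases (79.3%, 61.6 to 90.2), though only 3 genes had 3 or more. SOCS1 had 6 within 50 kb, with 33.5 in KARPAS-45 against 13.1 in PER-117 for the strongest, IL2RB 3 (29.9 and 13.2), IL10RA 3 and IL7R 2. JAK1, JAK3, STAT5B, IL6R, IL6ST and IFNGR1 had none. Homing and migration genes had 19 of 25 (76.0%, 56.6 to 88.5), with SELPLG, the integrin chain ITGB2 (6, with 25.1 and 21.8), RHOH (6, with 28.5 and 18.7) and the lymph node receptor CCR7 (4, with 22.8 and 27.3) in front. Survival and death genes had 13 of 19 (68.4%, 46.0 to 84.6): BCL2 had 5, with 40.2 and 16.2 for the strongest, BCL2L1 4 and BID 5, whereas BCL2L11, BAX, FAS and XIAP had none. For these lists the Wilson interval lay above 30.0%.

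The RUNX family with CBFB had 4 of 4. Of 16 RUNX cofactors 9 had one, led by the corepressor SIN3A (5, with 34.2 and 26.5), CBFA2T3 (4, with 17.4 and 37.2) and SMAD3 (4, with 42.8 and 16.7). KMT2A complex genes had 8 of 14, with ELL (8) and MLLT3 (34.3 and 18.7) among them, and KMT2A itself had none. Of 20 KMT2A-fusion targets 10 had one, among them RUNX1, RUNX2, BCL2, SUPT3H and the kinase gene CDK6, while HOXA5, HOXA7, HOXA9, HOXA10, MEIS1 and MEF2C had none. Of 20 NOTCH pathway genes 9 did, led by NOTCH1 (6 within 50 kb), and HES1, its target, had one 1421 bp away with 27.04 and 12.7. Of 14 G1 cyclins and kinases 7 did, and of 19 PI3K-AKT-MTOR genes 9, among them PIK3CD, the lymphocyte catalytic subunit (4, with 31.2 and 27.01), and PIK3R5 (3, with 19.4 and 44.0). Of 23 genes of glycolysis and nutrient uptake 11 did, with SLC2A1 first (3, with 28.4 and 15.3).

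For the other lists the share lay between 6.25% and 46.7%. Progenitor and stem-cell genes had 6 of 19, of which MSI2, IGF1R, CD34 and IGF2R each had 4 or more. T-ALL oncogenic factors had 4 of 20, ETV6, LYL1, LMO2 and SPI1, and none lay near TAL1, LMO1, TLX1 or TLX3. Mitochondrial biogenesis genes had 5 of 20 and bone genes 4 of 16, VDR, SP7, COL1A1 and BGLAP. As markers of other lineages, B-lineage genes had 6 of 14 (42.9%, 21.4 to 67.4), cytotoxic genes 7 of 15 (46.7%, 24.8 to 69.9) and erythroid and megakaryocyte genes 6 of 15 (40.0%, 19.8 to 64.3). These shares were above 30.0% and near that of the NOTCH pathway (45.0%, 25.8 to 65.8), with wide intervals that contain 30.0%. Myeloid genes had 3 of 16 and non-blood genes 1 of 16. The NFE2 site, 3389 bp from that erythroid factor, had 12.9 and 59.8, and the KLRB1 count rests on the CLEC2D site, since neighbouring genes share peaks. With 23 lists of 4 to 30 genes, some of them sharing genes, many intervals contain 30.0%, and no list was tested.

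**Figure D5:**
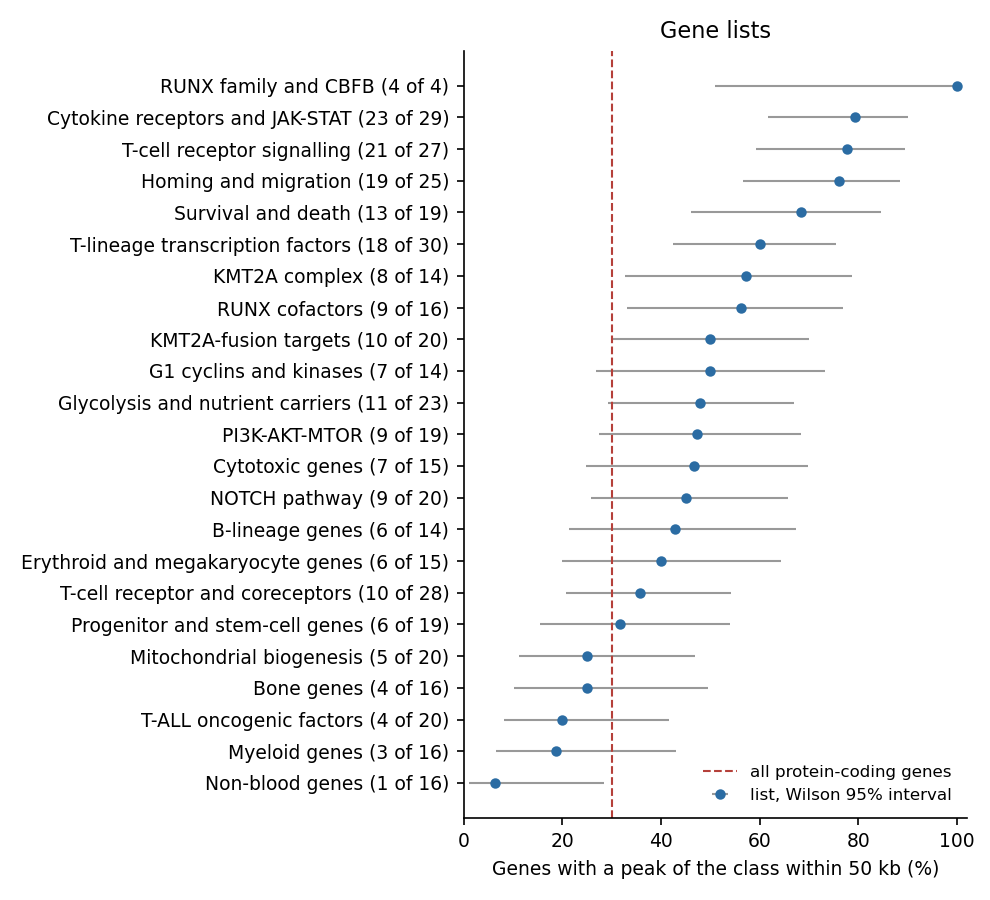
Share of genes in each list with a distal shared acetylated RUNX2 peak inside the gene or within 50 kb (x axis, percent), with Wilson 95% intervals as bars and the 30.0% of all protein-coding genes as a dashed line. Of the 23 lists, 18 lie right of the line, the cytotoxic, B-lineage and erythroid lists among them, and the mitochondrial, bone, T-ALL oncogenic, myeloid and non-blood lists lie left of it, with wide intervals throughout.

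The labelled cell type was checked on H3K27ac at gene ends of defining markers. All 8 T-lineage markers carried it in KARPAS-45. In PER-117 7 did, and CD5 did not. Of 4 B-lineage markers 2 were acetylated in both lines, CD79A among them, of 4 erythroid markers GATA1 was in PER-117, and none of the 4 myeloid and 4 non-blood markers was in either. A peak of the class lay within 50 kb of 4 T-lineage markers (CD247, CD2, CD7 and LCK), of PAX5 and CD79A, and of KLF1.

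Some micro-RNA genes were among the neighbours: of 1558 hairpins in RefSeq, 44 lay within 2 kb of a distal shared acetylated peak and 12 were overlapped by one. No background share was computed for this window, so the count is not read as high or low. MIR142, the blood-specific miRNA gene, had a peak 1079 bp away with 7.57 in KARPAS-45 and another 1821 bp away with 12.9, which overlapped the same PER-117 peak, with 23.3. The cluster of MIR23A, MIR27A and MIR24-2 on chromosome 19 had one at 263, 405 and 563 bp, with 7.21 and 16.6. The main products of these genes have different seeds, shown in capitals (bases 2 to 8 of the mature RNA) with GRCh38.p14 positions. The seed is the stretch that pairs with target transcripts.
hsa-miR-142-3p, chr17:58331245-58331267, minus strand: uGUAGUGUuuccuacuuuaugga
hsa-miR-142-5p, chr17:58331283-58331303, minus strand: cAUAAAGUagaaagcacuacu
hsa-miR-23a-3p, chr19:13836595-13836615, minus strand: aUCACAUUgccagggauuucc
hsa-miR-27a-3p, chr19:13836447-13836467, minus strand: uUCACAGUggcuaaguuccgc
hsa-miR-24-3p, chr19:13836289-13836310, minus strand: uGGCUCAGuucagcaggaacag
Every seed in this set occurs once. Peaks also lay near MIRLET7I (303 bp, with 12.4 and 9.08) and, upstream of RUNX3, over MIR4425 (7.64 and 6.08).

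By chromosome, between 45.4% (39.9 to 50.9, chromosome 4) and 63.7% (59.5 to 67.6, chromosome 17) of the distal shared peaks were acetylated in both lines, with 63.2% on chromosome 19. Chromosome 1 held most of them, 494.

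The size of the class depends on the lists. The H3K27ac lists covered 166.7 Mb in KARPAS-45 and 76.2 Mb in PER-117, and read depth is unknown. With the KARPAS-45 H3K27ac list cut to the covered length of PER-117, widest regions first, 2316 peaks were left, and when RUNX2 peaks needed a −log10 q of at least 10 in both lines, 2579. The count of T-cell genes with a peak within 50 kb was then 42 and 40 of 85. The share of all protein-coding genes was not computed for these smaller sets, so the background of the full set does not apply.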

How the data were processed

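The 4 ChIP libraries of KARPAS-45 and PER-117 were analysed from the peak lists the authors deposited, 1 list per library, and the 3 inputs were not analysed here. Per the submitters' processing notes, STAR 2.4.2a, MACS2 and the build hg38 were used, and the sources used here do not give their parameters, their thresholds or the input behind a list. The lists the authors deposited give per peak a display score, a linear ratio called fold enrichment, and −log10 values of p and of q. Read depth is unknown. The lowest deposited −log10 q was 1.31 (KARPAS-45) and 1.30 (PER-117) for RUNX2, and 0.431 and 1.01 for H3K27ac. The last column of the deposited RUNX2 lists is a summit position, and in the deposited H3K27ac lists it is 100 in every line and was not used.

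RUNX2 lines with the same interval were joined, keeping the summit of highest fold enrichment. This and leaving out other sequences took 46275 KARPAS-45 lines to 42911 and 23043 PER-117 lines to 21027. Gene spans (59098 genes, 19974 protein-coding), promoter windows and miRNAs came from RefSeq tables of GRCh38.p14. Strand and promoter sequence were at hand for 15812 of the protein-coding genes. Where several peaks of PER-117 overlapped 1 of KARPAS-45, the strongest was its partner. With 1 library per line and antibody nothing was tested. Shares carry Wilson intervals.

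The peaks, the 23 gene lists (428 entries) and the comparisons were chosen with earlier results of these data known. Named genes are the nearest or host genes of the 15 best peaks by the worse rank, of the 10 with the largest rank difference in each direction, of the 10 largest groups, of the 5 widest H3K27ac regions per line among those that hold such a peak and of 3 peaks on each side of the 1 kb limit, and up to 5 genes per list. Further list genes, loci, receptor segments, miRNAs and the most distant peaks were named after their values were seen. Genes of chromosome 8 are not named. A few further genes that the rule takes in are not reported here, and counts include them. Alternatives concerned the q thresholds, the overlap, the position of a peak, the distance and kind of gene ends, the H3K27ac lists, the parent list, the window around genes and the joining distance. The planned motif count in every peak was not run, because no genome sequence was used here. Overlap and interval code was tested on simulated data and against bedtools 2.31.1. The work used matplotlib 3.10.9, scipy 1.17.1, pandas 2.3.3 and numpy 2.4.6 under Python 3.11.15.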

Additional observations from a re-analysis of the deposited data

How the results depend on the processing

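Of 75 alternatives over 7 results, 46 left the value within its error or within 1.5 times, and 29 did not. The reported values are 4783 peaks, 55.9% of distal shared peaks, 61.9% inside protein-coding genes, a median of 15283 bp to a gene end and of 29 bp between summits, and 49 of 85 T-cell genes. When RUNX2 peaks needed a −log10 q of at least 10 these were 2579 peaks, 59.2%, 59.8%, 17088 bp and 21 bp. With the KARPAS-45 H3K27ac list at the covered length of PER-117 (5379 regions, widest first) they were 2316 peaks, 27.1% and 66.2%. H3K27ac regions of −log10 q of 2 or more gave a share of distal shared peaks of 47.0%, and the wider 50% of regions 49.1%, with 63.6% inside genes. Asking for 2.5 kb from gene ends gave 53.9%, 60.5%, 20266 bp and 27 bp, and counting the ends of all annotated genes 54.1%, 65.3% and 27 bp. Summits within 100 bp gave 53.5% and 23 bp, and an overlap of 50% of the shorter interval 27 bp. The settings added after the data were seen gave, over 1 kb from every annotated start, 52.8%, 59.2%, 16449.5 bp and 27 bp, and with H3K27ac asked in PER-117 alone, 66.7%, 60.2%, 16885 bp and 27 bp. The cause was not tested beyond what each setting leaves out by construction. The count of T-cell genes stayed within 1.5 times in all 14 of its alternatives, between 40 and 55. The share of all protein-coding genes differs between such settings and was not computed for most of them, so these counts stand without a background. No paired analysis was possible because each line and antibody had 1 library. Without replicates or depth, a peak missing from a list may be uncalled rather than absent.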
